A study of Mus musculus with 20 samples.

Results

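The genes described here are 62 protein-coding genes of name families tied to the axoneme of motile cilia, chosen by name among the 55471 genes of a count table of mouse hypothalamus. They are the genes whose symbols begin with Dnah, Cfap, Tekt or Drc and a number, or with Rsph. The rule uses symbols only, so it does not show that the product of each member serves motile cilia. It was set with earlier results of these data known. By role they comprise 5 outer arm and 10 inner arm dynein heavy chains, 8 radial spoke proteins, 3 proteins of the nexin-dynein regulatory complex, 5 tektins and 31 cilia and flagella associated proteins (Cfap). The study fed wild-type C57BL/6 mice and sequenced RNA from slices of the hypothalamus in 20 libraries. RISP_PF is 6 libraries from mice on a diet containing risperidone for 4 weeks and pair-fed, that is, rationed to the intake of another group. RISP_Ad.lib is 7 libraries from mice given risperidone in the diet for 4 weeks with free access to food, and CON_Ad.lib is 7 libraries from mice on a control diet with free access to food. Risperidone is an antipsychotic that blocks dopamine and serotonin receptors and is known for weight gain. The labels say that body weight did not differ from that of mice on control diet, and they leave unclear to which feeding condition this applies. Nothing in the labels ties a library to its own animal, so every p-value below rests on variation among libraries, and some of that variation may be technical.

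In a motile cilium, dynein arms carried on the outer doublet microtubules slide neighbouring doublets past each other. Radial spokes and the nexin-dynein regulatory complex turn that sliding into a controlled bend, and tektins and many Cfap proteins stabilise the doublets or the central pair. In the brain such cilia stand in tufts on ependymal cells, which line the ventricles and move cerebrospinal fluid, and in a hypothalamus slice these cells border the third ventricle. The transcription factor FOXJ1 and the RFX factors are known to switch on motile cilia genes, and RFX factors bind a sequence called the X-box. Several members are known mainly from sperm tails.

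Total counts ran from 17316043 to 18606543 in 19 libraries, and RISP_Ad.lib library 3 held 9748005. In that library 22.4% of counts fell in ribosomal RNA genes, against 2.26% to 5.19% in the others. RISP_Ad.lib library 1 stood apart in another way: the summed level of 12 marker genes of cortex, hippocampus and amygdala neurons reached 1400 CPM (read counts scaled to library size with TMM factors), against 173 CPM or less in each CON_Ad.lib library. RISP_Ad.lib library 2 had 262 CPM of these markers, and the other 5 had 148 to 182 CPM. The main results that involve RISP_Ad.lib are therefore also given without libraries 1 and 3. Hypothalamus neuron markers were present, with a summed level of 1010 to 1520 CPM in RISP_PF, 638 to 1520 CPM in RISP_Ad.lib and 1360 to 1750 CPM in CON_Ad.lib, and Kiss1 of that list had no count in any library.

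The ependyma label was checked against genes outside the rule. Foxj1 had 13.3 to 17.0 CPM in RISP_PF, 8.71 to 16.1 CPM in RISP_Ad.lib and 14.8 to 18.2 CPM in CON_Ad.lib. Of 16 other ependyma genes 15 passed the filter on low counts, and the summed level of all 16 was 97.0 to 126 CPM in RISP_PF, 74.9 to 117 CPM in RISP_Ad.lib and 108 to 130 CPM in CON_Ad.lib. Mia of that list did not pass and reached at most 0.282 CPM. These are bulk slices, so the values show that ependyma genes were detected and cannot show which cells held the members' transcripts.

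All but 3 of the 62 members passed the filter on low counts. Cfap97d1, Rsph6a and Tekt3 did not pass, and their means over the 20 libraries were 0.123 CPM, 0.232 CPM and 0.277 CPM. Levels between genes are compared per kilobase of exon (RPKM, from the TMM-scaled CPM). Cfap36, which binds small GTPases of the ARL family, was highest at 25.9 RPKM, and Rsph9 followed at 12.3 RPKM and Tekt5 at 11.0 RPKM. Cfap20, an axonemal protein of the doublet microtubules, had 10.4 RPKM and Cfap300, a factor known in humans for the assembly of dynein arms, 9.33 RPKM. At the low end Dnah8, a dynein heavy chain known from sperm, had 0.0585 RPKM. Tested dynein heavy chains had a median of 0.511 RPKM and a median exon length of 14968 bases, against 2.36 RPKM and 3013 bases for the other 44 tested members. Exons of 26 members overlap those of another gene, and since the strand setting of the counting is not given in the sources used here, the counts of these 26 are uncertain. Dnah7a, Dnah7b and Dnah7c, and likewise Rsph3a and Rsph3b, are close copies whose reads the counting could split.

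**Figure D1:**
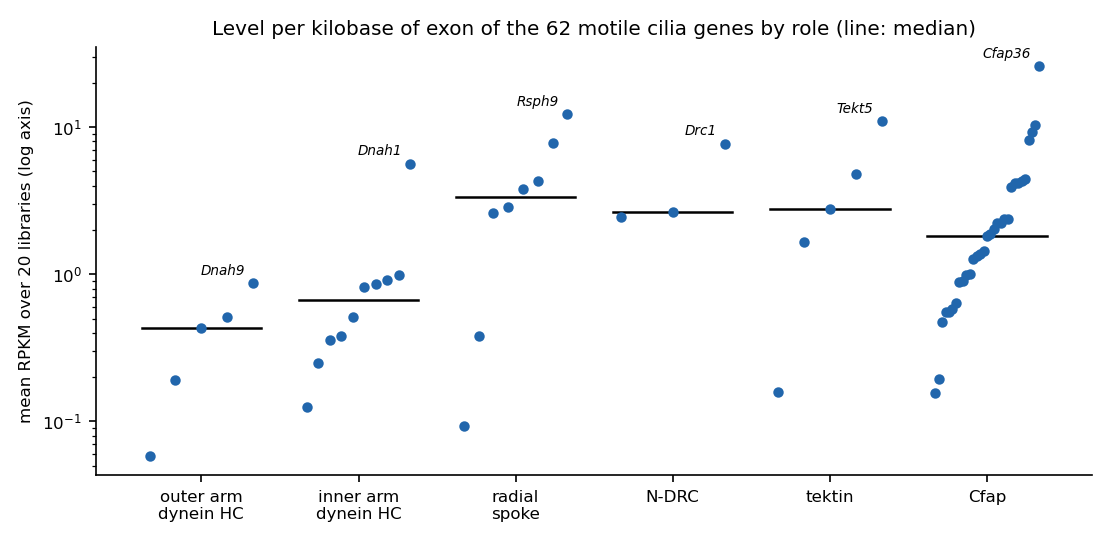
Level per kilobase of exon of each of the 62 genes, as the mean over 20 libraries on a log axis, grouped by role (HC, heavy chain; N-DRC, nexin-dynein regulatory complex), with the highest gene of each group named and a line at the group median. Dynein heavy chains lie mostly below 1 RPKM, and Cfap36, Rsph9, Tekt5 and Cfap20 lie above 10 RPKM.

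Promoters were examined because FOXJ1 and RFX factors are the known regulators of these genes. RefSeq promoters (GRCm38.p6, 250 bases before to 50 bases after a start) were held for 51 of the 62 members. The short X-box form GTTGCC, which reads GGCAAC on the other strand, lay in the promoter of 19 of these 51 genes, or 37.3%, against 14.1% of 27025 genes in the same table. The full X-box, a longer palindrome within which the short form can lie, was found for 1 member, Cfap298, or 1.96%, against 0.529% of all genes. The forkhead letters GTAAACA, which read TGTTTAC on the other strand, were found in 4 members, or 7.84%, against 4.05%. Such a match describes letters in a window and is no evidence of binding. The promoters below run from 200 bases before to 30 bases after the RefSeq start, 5′ to 3′ on the gene's strand, with matches in capitals. Rsph9, Cfap20 and Cfap300 are shown as highly expressed members with no match, with both motifs and with the short X-box. Cfap36 and Tekt5, also among the highest per kilobase, had no match and are not shown. Tekt4 and Cfap161 were chosen after their values were seen, for their differences between groups.
Tekt4 (chr17:25471390-25471619, plus strand): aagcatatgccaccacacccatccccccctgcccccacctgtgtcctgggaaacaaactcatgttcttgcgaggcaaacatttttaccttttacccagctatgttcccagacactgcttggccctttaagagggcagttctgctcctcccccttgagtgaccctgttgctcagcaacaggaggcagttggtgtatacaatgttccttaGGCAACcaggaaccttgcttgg
Cfap161 (chr7:83794810-83795039, minus strand): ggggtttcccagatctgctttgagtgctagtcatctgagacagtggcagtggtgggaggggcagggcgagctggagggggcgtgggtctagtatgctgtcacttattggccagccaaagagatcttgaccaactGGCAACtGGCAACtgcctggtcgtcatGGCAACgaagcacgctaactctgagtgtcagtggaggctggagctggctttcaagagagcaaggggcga
Cfap300 (chr9:8042846-8043075, minus strand): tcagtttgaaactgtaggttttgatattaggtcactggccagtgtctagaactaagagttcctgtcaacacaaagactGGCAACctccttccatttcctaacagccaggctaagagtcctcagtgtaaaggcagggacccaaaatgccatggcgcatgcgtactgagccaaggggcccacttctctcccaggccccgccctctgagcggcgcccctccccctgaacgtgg
Cfap20 (chr8:95434840-95435069, minus strand): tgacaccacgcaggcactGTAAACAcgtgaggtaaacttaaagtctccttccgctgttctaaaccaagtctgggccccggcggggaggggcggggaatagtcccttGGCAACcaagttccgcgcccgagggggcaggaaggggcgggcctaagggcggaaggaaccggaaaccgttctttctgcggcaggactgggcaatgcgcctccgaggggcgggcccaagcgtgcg
Rsph9 (chr17:46144171-46144400, minus strand): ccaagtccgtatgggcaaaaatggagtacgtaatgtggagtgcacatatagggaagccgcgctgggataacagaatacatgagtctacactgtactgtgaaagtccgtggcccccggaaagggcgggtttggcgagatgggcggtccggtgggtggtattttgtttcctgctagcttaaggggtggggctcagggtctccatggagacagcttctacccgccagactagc

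In the Tekt4 promoter the match begins 9 bases after the RefSeq start, and this start lies inside the Tekt4 gene of the GENCODE annotation, which begins farther upstream. The Cfap161 promoter holds the short form at 3 places, beginning 66, 59 and 39 bases before the start. In Cfap300 the match begins 122 bases before the start, and in Cfap20 the short X-box begins 94 and the forkhead letters 182 bases before it. Rsph9 has none of these letters in its window. The short form is shared by 19 of the 51 members with a promoter, and its part in any difference between groups was not tested.

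The first question was whether these genes differed in mice on risperidone with either feeding regime from mice on control diet, and between the regimes. Of the 59 members tested, none was called in RISP_Ad.lib against CON_Ad.lib at an adjusted p under 0.05 (edgeR quasi-likelihood test, adjusted over 17893 genes), where 0.0615% of all genes were called. DESeq2 and limma-voom also called none, and 11 members had an unadjusted p under 0.05, beside 13.1% of all genes. In RISP_PF against CON_Ad.lib 1 member was called, Tekt4, which was lower, beside 0.486% of all genes. In RISP_PF against RISP_Ad.lib 1 member was called, again Tekt4 and again lower, beside 0.397% of all genes. The comparisons share libraries, so they are not independent of each other. Fewer cells of a type and less RNA per cell cannot be told apart in such slices.

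Tekt4, a tektin (ENSMUSG00000024175, chr17:25454615-25476602 on the plus strand of GRCm38), fell in pair-fed mice. Its level was 3.47, 2.98, 4.05, 3.37, 4.12 and 3.32 CPM in the RISP_PF libraries 1 to 6. The RISP_Ad.lib libraries 1 to 7 had 5.87, 4.33, 7.89, 6.73, 6.38, 7.19 and 5.62 CPM, and the CON_Ad.lib libraries 1 to 7 had 5.45, 5.79, 6.52, 6.70, 6.70, 6.92 and 7.33 CPM. All 6 RISP_PF libraries lay below every RISP_Ad.lib and every CON_Ad.lib library, and the nearest of these was RISP_Ad.lib library 2. Such a separation downwards was found in 0.861% of all genes tested against CON_Ad.lib and in 0.369% against RISP_Ad.lib. The mean was 3.55 ± 0.445 CPM in RISP_PF (SD, n = 6), 6.29 ± 1.16 CPM in RISP_Ad.lib and 6.49 ± 0.651 CPM in CON_Ad.lib (SD, n = 7 each). The log2 fold change of RISP_PF against CON_Ad.lib was -0.87 (SE 0.117, edgeR adjusted p = 0.000189), a fold of 0.548 with a 95% interval of 0.464 to 0.648. Against RISP_Ad.lib it was -0.805 (SE 0.118, edgeR adjusted p = 0.00121), a fold of 0.572 with an interval of 0.483 to 0.679. This second value is also the test of the difference between the 2 changes against CON_Ad.lib. By p, Tekt4 ranked 18 of 17893 genes in the first comparison and 11 in the second. In RISP_Ad.lib against CON_Ad.lib the log2 fold change was -0.06, with an interval of -0.285 to 0.16 (edgeR adjusted p = 0.853). Without RISP_Ad.lib libraries 1 and 3 the values were -0.87 (edgeR adjusted p = 3.64e-05) and -0.765 (edgeR adjusted p = 0.00112), in the same order. No exon of Tekt4 overlaps another gene.

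The other tektins, which form filaments in the wall of the doublet microtubules, were not called in any comparison. Tekt1 averaged 7.85 ± 1.51 CPM in RISP_PF (SD, n = 6), 7.30 ± 0.875 CPM in RISP_Ad.lib and 8.21 ± 1.01 CPM in CON_Ad.lib (SD, n = 7 each). Tekt2 had a lowest, median and highest level of 2.04, 2.84 and 3.26 CPM in RISP_PF, 2.70, 3.24 and 3.61 CPM in RISP_Ad.lib and 2.38, 3.12 and 4.82 CPM in CON_Ad.lib. Its groups overlapped, and its log2 fold change in RISP_PF against CON_Ad.lib was -0.31 (SE 0.153, edgeR adjusted p = 0.757). Tekt2 exons overlap Gm12945 on the opposite strand, so its counts are among the uncertain ones. Tekt5 had 16.9, 21.7 and 25.4 CPM in RISP_PF, 15.2, 19.5 and 21.9 CPM in RISP_Ad.lib and 17.7, 19.3 and 21.5 CPM in CON_Ad.lib. Its log2 fold change in RISP_PF was 0.13 (SE 0.0867) against CON_Ad.lib and 0.18 (SE 0.0876) against RISP_Ad.lib, opposite in sign to that of Tekt4. The second value was 0.085 without RISP_Ad.lib libraries 1 and 3.

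**Figure D2:**
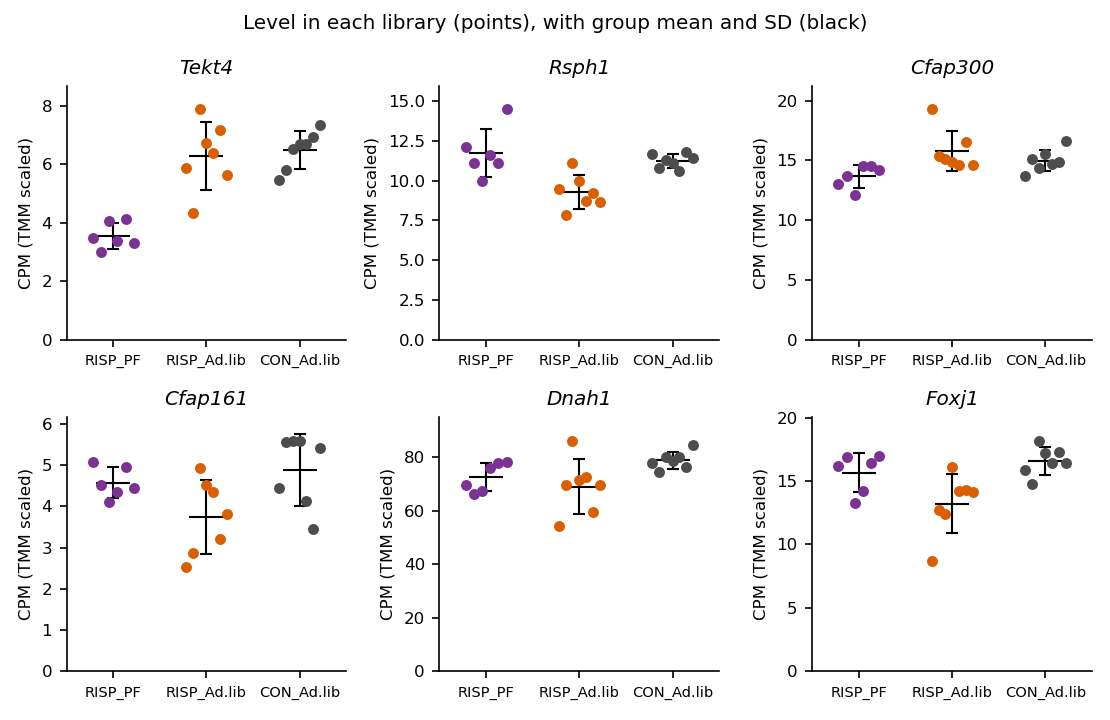
TMM-scaled CPM (vertical axis, from 0) of Tekt4, Rsph1, Cfap300, Cfap161, Dnah1 and Foxj1 in each library (points), with the group mean and SD in black, for RISP_PF (n = 6), RISP_Ad.lib (n = 7) and CON_Ad.lib (n = 7). The Tekt4 points of RISP_PF lie at 2.98 to 4.12 CPM, below all others, while the groups overlap for the other genes except Cfap300 in RISP_PF against RISP_Ad.lib.

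Radial spoke proteins carry signals between the central pair and the dynein arms. Of the 7 tested, 6 had a negative log2 fold change in RISP_Ad.lib against CON_Ad.lib and 1 a positive one, with a median of -0.13. Rsph1, a protein of the spoke head (ENSMUSG00000024033, chr17:31255019-31277383 on the minus strand of GRCm38), had the smallest p of all members there. It had 9.98, 11.3 and 14.5 CPM (lowest, median and highest) in RISP_PF, 7.82, 9.22 and 11.1 CPM in RISP_Ad.lib and 10.6, 11.3 and 11.8 CPM in CON_Ad.lib. Of the 7 RISP_Ad.lib libraries 6 lay below every CON_Ad.lib library, and library 3, the shallow one, lay among them. The log2 fold change of RISP_Ad.lib against CON_Ad.lib was -0.29 (SE 0.0775, edgeR adjusted p = 0.159), which did not pass. In RISP_PF against RISP_Ad.lib it was 0.35 (SE 0.0802, edgeR adjusted p = 0.0536), just short of the threshold, with 4 of 6 RISP_PF libraries above every RISP_Ad.lib library. Without RISP_Ad.lib libraries 1 and 3 this became 0.41 (edgeR adjusted p = 0.0126). DESeq2 gave an adjusted p of 0.00823 and limma-voom 0.0097. Between RISP_PF and CON_Ad.lib its log2 difference was 0.06, and the 95% interval ran from -0.10 to 0.23.

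Rsph9, also of the spoke head, had 18.5, 20.4 and 22.3 CPM in RISP_PF, 16.1, 19 and 20.5 CPM in RISP_Ad.lib and 18.7, 20.4 and 21.7 CPM in CON_Ad.lib, with overlapping groups. Its log2 fold change was -0.13 in RISP_Ad.lib against CON_Ad.lib (SE 0.0585, edgeR adjusted p = 0.353). Rsph4a, the third member of the spoke head here, averaged 13.7 ± 1.19 CPM in RISP_PF (SD, n = 6), 13.2 ± 1.57 CPM in RISP_Ad.lib and 15 ± 1.59 CPM in CON_Ad.lib (SD, n = 7 each). Rsph14 had few counts, at a mean of 1.14 CPM, and a log2 fold change of -0.31 in RISP_Ad.lib and -0.33 in RISP_PF against CON_Ad.lib, neither called. Rsph3a and Rsph3b, proteins of the spoke stalk, had log2 fold changes between -0.065 and -0.001 in the 3 comparisons. Among the radial spoke proteins, none was called in RISP_PF against CON_Ad.lib, where 5 of 7 were lower and the median was -0.04.

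Dynein heavy chains are the motors of the axoneme, with outer arms that set beat frequency and inner arms that shape the bend. Of the 15, none was called in any comparison. Relative to CON_Ad.lib, RISP_Ad.lib had 8 of 10 inner arm chains and 3 of 5 outer arm chains lower, with medians of -0.11 and -0.07. These became -0.015 and -0.006 without RISP_Ad.lib library 1, -0.21 and -0.19 without library 3 (9 of 10 and 4 of 5 lower), and -0.11 and -0.12 without both. Dnah1, an inner arm chain, was the most abundant of them per kilobase at 5.64 RPKM. It had 66.3, 72.9 and 78.1 CPM in RISP_PF, 54.4, 69.6 and 86.2 CPM in RISP_Ad.lib and 74.3, 78.5 and 84.5 CPM in CON_Ad.lib. Of the RISP_Ad.lib libraries 6 lay below every CON_Ad.lib library, and library 3 lay above every one of them. The log2 fold change in RISP_Ad.lib against CON_Ad.lib was -0.20 (SE 0.0708, edgeR adjusted p = 0.263), and without libraries 1 and 3 it was -0.20 with an edgeR adjusted p of 0.0766. Dnah1 exons overlap Gm35823 on the opposite strand, so its counts are uncertain in the same way as those of Tekt2.

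Dnah7a, another inner arm chain, had 6.25, 7.42 and 8.29 CPM in RISP_PF, 5.37, 6.30 and 7.46 CPM in RISP_Ad.lib and 5.42, 5.84 and 8.32 CPM in CON_Ad.lib. On the log2 CPM scale all 6 RISP_PF libraries lay above the CON_Ad.lib mean, while in CPM the lowest lay just below it (6.25 against 6.28). CON_Ad.lib library 4 was higher than any RISP_PF library. The log2 fold change of RISP_PF against CON_Ad.lib, 0.23, did not pass (SE 0.0978, edgeR adjusted p = 0.665). In RISP_Ad.lib against CON_Ad.lib the log2 fold change was -0.02 for Dnah7a, 0.07 for Dnah7b and 0.18 for Dnah7c. Without RISP_Ad.lib library 3 Dnah7b had -0.02, and without libraries 1 and 3 Dnah7c had 0.11. Dnah5 and Dnah9, the outer arm chains of airway and ependymal cilia, had 0.15 and 0.16 in that comparison, and Dnah11 had -0.07. The Dnah9 value rested on the shallow RISP_Ad.lib library 3, which held 30 CPM while the other 6 held 10.9 to 14 CPM. Without libraries 1 and 3, Dnah9 had -0.05, Dnah5 0.04 and Dnah11 -0.12. Dnah8 had the lowest value of any member there, -0.60 (SE 0.252, edgeR adjusted p = 0.318), at a mean of 1.28 ± 0.732 CPM in RISP_Ad.lib and 1.80 ± 0.325 CPM in CON_Ad.lib (SD, n = 7 each). Dnah10, Dnah14 and Dnah17 had -0.18, -0.19 and -0.19, and none of these passed. Without libraries 1 and 3 they had -0.21, -0.11 and -0.40, again with none called. Library 3 also stood apart for Dnah17, at 7.04 CPM against 2.06 to 2.64 CPM in the other RISP_Ad.lib libraries. Unlike that of Dnah9, the Dnah17 value was negative both with every library and without libraries 1 and 3.

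The nexin-dynein regulatory complex links neighbouring doublets, and none of its 3 measured members was called. Drc1 had 15.6, 19.9 and 23.2 CPM in RISP_PF, 18.2, 20.6 and 26.1 CPM in RISP_Ad.lib and 19.8, 21 and 22.8 CPM in CON_Ad.lib, and the groups overlapped. Its log2 fold change against CON_Ad.lib was -0.10 in RISP_PF (SE 0.0802), and its 95% interval in RISP_Ad.lib was -0.14 to 0.14. Drc7 and Drc3 had log2 fold changes of -0.215 and -0.11 in RISP_Ad.lib against CON_Ad.lib, and 0.27 and 0.05 in RISP_PF against RISP_Ad.lib. The Drc3 values were -0.05 and -0.004 without RISP_Ad.lib libraries 1 and 3.

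The Cfap genes, a naming class of diverse proteins, held 30 tested members and no called one. With free feeding 20 were lower and 10 higher than in CON_Ad.lib, with a median of -0.08. It was -0.051 without RISP_Ad.lib library 1, -0.047 without library 2 and -0.052 without libraries 1 and 3, each with 19 of 30 lower. Without library 3 alone the median was -0.094, with 22 of 30 lower. Cfap161, a protein of the doublet lumen, had 4.10, 4.48 and 5.09 CPM in RISP_PF, 2.54, 3.82 and 4.93 CPM in RISP_Ad.lib and 3.46, 5.42 and 5.60 CPM in CON_Ad.lib. RISP_Ad.lib libraries 1, 2 and 6 lay below every CON_Ad.lib library and the others overlapped them, with a log2 fold change of -0.41 (SE 0.137, edgeR adjusted p = 0.237). In RISP_PF against RISP_Ad.lib it was 0.31 (SE 0.143, edgeR adjusted p = 0.353). Cfap299, Cfap100 and Cfap45 followed in RISP_Ad.lib against CON_Ad.lib with -0.48, -0.27 and -0.19, and all 7 RISP_Ad.lib libraries lay below the CON_Ad.lib mean for each. Exons of these 3 genes overlap another gene. In RISP_PF against RISP_Ad.lib the same genes had 0.50, 0.05 and 0.20, and Cfap100 had 0.005 without RISP_Ad.lib libraries 1 and 3.

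Cfap300 had its lowest median in pair-fed mice. It had 12.1, 13.9 and 14.5 CPM in RISP_PF, 14.6, 15.1 and 19.3 CPM in RISP_Ad.lib and 13.7, 14.9 and 16.6 CPM in CON_Ad.lib. All 6 RISP_PF libraries lay below every RISP_Ad.lib library by a narrow margin, a separation found in 0.369% of all genes tested. The log2 fold change of -0.21 did not pass (SE 0.0678, edgeR adjusted p = 0.205). Without RISP_Ad.lib libraries 1 and 3 it was -0.15 (edgeR adjusted p = 0.347). Cfap36 had 70.8, 73.6 and 76.0 CPM in RISP_PF, 59.4, 71.1 and 78.9 CPM in RISP_Ad.lib and 62.6, 69.5 and 75.9 CPM in CON_Ad.lib. Cfap20 had 45.5, 49.0 and 50.2 CPM in RISP_PF, 41.0, 45.3 and 50.9 CPM in RISP_Ad.lib and 40.0, 46.1 and 49.7 CPM in CON_Ad.lib. Both genes overlapped between all groups, and so did Cfap97, with 37.9, 40.6 and 42.2 CPM in RISP_PF, 35.5, 44.5 and 47.4 CPM in RISP_Ad.lib and 38.6, 41.7 and 49.2 CPM in CON_Ad.lib. These are among the most abundant members, and their log2 fold changes stayed between -0.08 and 0.10 in the 3 comparisons.

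**Figure D3:**
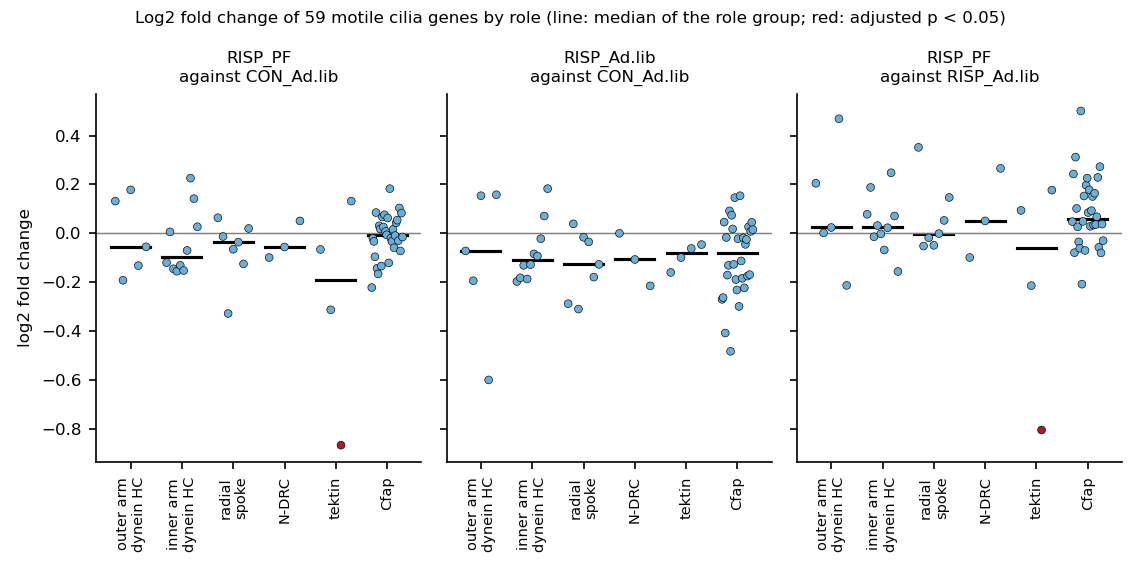
Log2 fold change (vertical axis) of the 59 tested genes in RISP_PF against CON_Ad.lib, RISP_Ad.lib against CON_Ad.lib and RISP_PF against RISP_Ad.lib, by role, with a line at each role's median. Tekt4, in red, is the member called at an adjusted p under 0.05, at -0.87 against CON_Ad.lib and -0.805 against RISP_Ad.lib. In RISP_Ad.lib against CON_Ad.lib 44 of 59 points lie below 0.

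Taken as a list, the members leaned lower in RISP_Ad.lib against CON_Ad.lib by a small amount. Their median log2 fold change was -0.10, against 0.008 over all genes tested, and 44 of 59 (74.6%) were lower, against 47.1% of all genes. At an unadjusted p under 0.05, 11 members (18.6%) were lower and none was higher, while 5.97% of all genes were lower and 7.14% higher. These 11 were Rsph1, Cfap161, Dnah1, Cfap299, Cfap100, Cfap45, Cfap126, Dnah8, Cfap65, Rsph4a and Rsph9. The lean changed with single libraries of RISP_Ad.lib. The median was -0.06 and 7 members had such a p without library 1, and it was -0.06 with 6 members without library 2. Without library 3 it was -0.11, with 15 members lower and 1 higher. With libraries 1 and 3 both left out, the median was -0.09, 43 of 59 were lower, 13 had an unadjusted p under 0.05 and none was called, where 0.267% of all genes were. The number called over all genes also moved, from 11 to 35 without library 1, 0 without library 2 and 11 without library 3. For these left-out settings the share of all genes at an unadjusted p under 0.05 is not given. The member counts there therefore cannot be set against it.

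In RISP_PF against CON_Ad.lib the members stayed close to all genes, with a median of -0.02 against 0.003 and 35 of 59 lower, or 59.3% against 48.5%. Only Tekt4 and Dnah7a had an unadjusted p under 0.05, or 3.39% of members against 6.66% of all genes. The count changed with single libraries and was 4 without RISP_Ad.lib library 1 or RISP_PF library 5, 1 without RISP_PF library 3, and 8 (4 higher and 4 lower) without RISP_Ad.lib libraries 1 and 3. Over all genes, the number called in these settings was 166, 70, 66 and 250 in that order, against 87 with every library. In RISP_PF against RISP_Ad.lib the median was 0.05 against -0.005 over all genes, with 39 of 59 higher, or 66.1% against 48.4%. Here 9 members had an unadjusted p under 0.05, or 15.3% against 13.5% of all genes, of which 7 were higher (Rsph1, Cfap299, Dnah7a, Rsph9, Cfap45, Cfap161 and Cfap126; all genes, 6.09%) and 2 were lower (Tekt4 and Cfap300; all genes, 7.44%). That number moved with single libraries: it was 4 without RISP_PF library 6, 5 without RISP_PF library 5 and 19 without RISP_Ad.lib library 3. Over all genes, 39, 40 and 70 were called in these settings, against 71 with every library. The share of all genes at an unadjusted p under 0.05 is again not given for the left-out settings. Without RISP_Ad.lib libraries 1 and 3, Rsph1 and Tekt4 were called, where 0.79% of all genes were.

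Whether the members move together was read library by library, as the deviation of each member's log2 CPM from its own mean over the 20 libraries. The mean deviation over the 59 members was -0.02, 0.01, -0.13, -0.04, 0.12 and 0.08 in RISP_PF libraries 1 to 6. In RISP_Ad.lib libraries 1 to 7 it was -0.25, -0.21, 0.18, 0.02, 0.001, -0.06 and -0.05. In CON_Ad.lib libraries 1 to 7 it was 0.08, -0.04, 0.05, 0.06, 0.01, 0.09 and 0.09. The lowest libraries were RISP_Ad.lib 1 and 2, with 17 and 9 of 59 members above their own mean, and RISP_PF library 3 followed with 15. Most members stood above it in RISP_PF libraries 5 and 6 (44 and 43), CON_Ad.lib library 6 (42) and RISP_Ad.lib library 3 (41). Of all genes tested, 47.5% to 52.0% were above their mean in any library. The SD of the mean deviation between libraries was 0.089 in RISP_PF (n = 6), 0.146 in RISP_Ad.lib (n = 7) and 0.045 in CON_Ad.lib (n = 7), and 0.092 in RISP_Ad.lib without libraries 1 and 3 (n = 5).

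**Figure D4:**
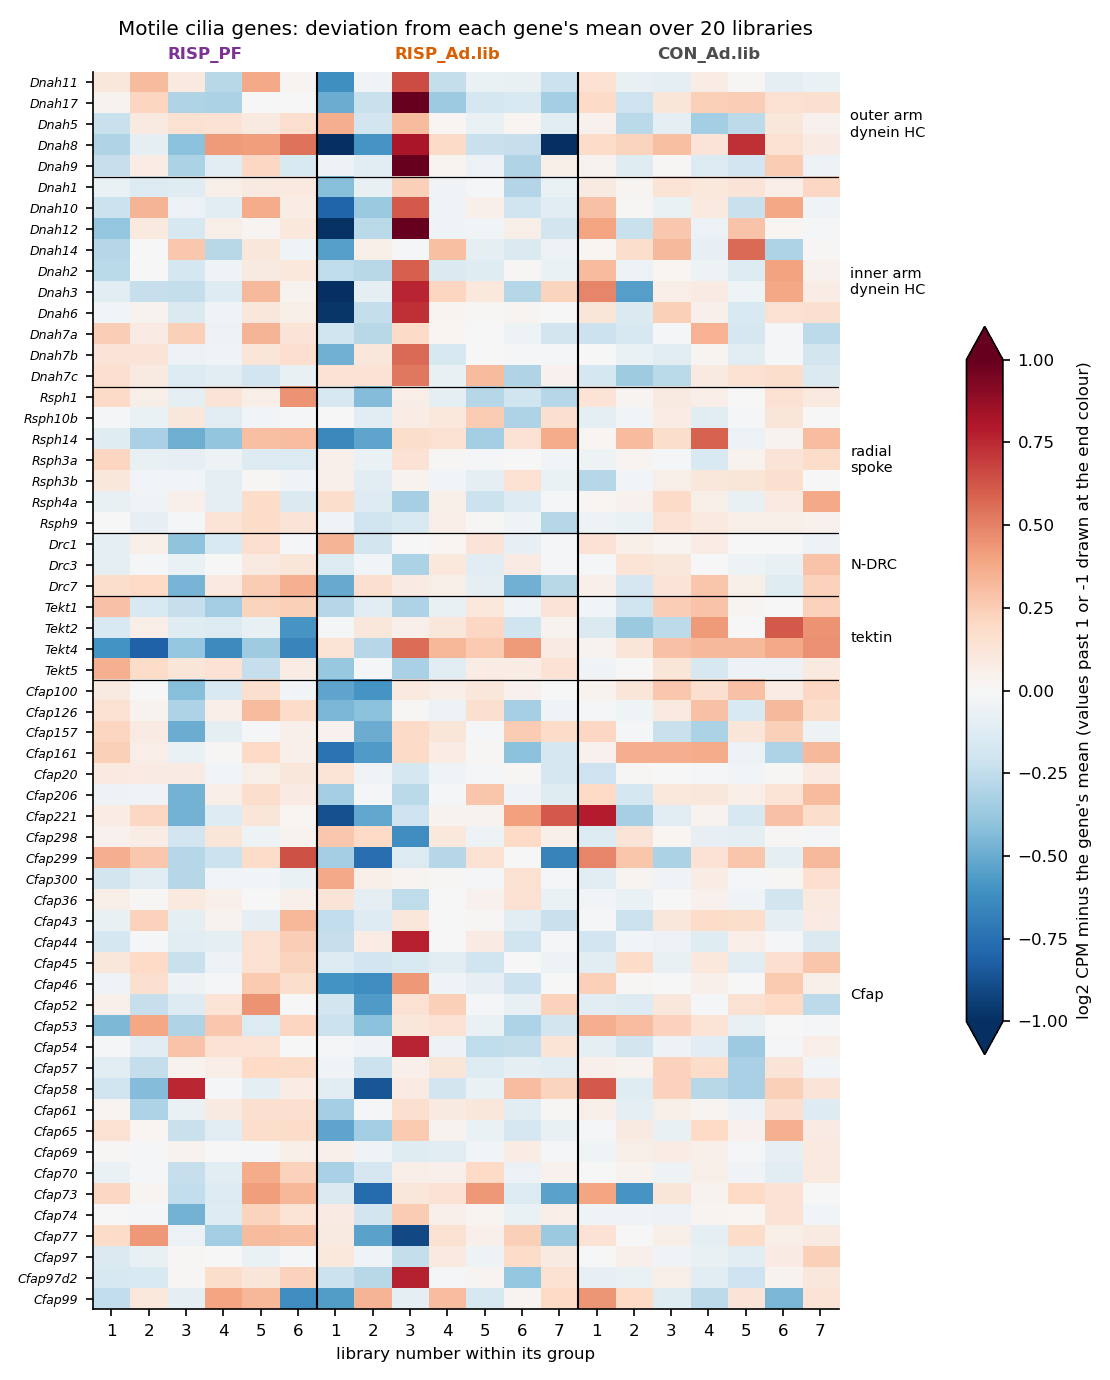
Deviation of log2 CPM from each gene's mean over the 20 libraries (colour, red above and blue below) for the 59 tested genes (rows, by role) in each library (columns, by group). RISP_Ad.lib libraries 1 and 2 are mostly blue, RISP_Ad.lib library 3 is red in the dynein heavy chains, and the Tekt4 row is blue across RISP_PF.

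RISP_Ad.lib libraries 1 and 3 deviated in opposite directions, most of all in the dynein heavy chains. In RISP_Ad.lib library 3, 14 of 15 dynein heavy chains lay above their own mean, by 0.63 on average, against 27 of the other 44 members and an average of 0.03. In library 1, 2 of 15 dynein heavy chains lay above their mean, with an average of -0.50, against 15 of 44 and -0.165 for the other members. In library 2 the averages were -0.16 and -0.23, so that both kinds were low. Exon length was set beside this because dynein heavy chain transcripts are very long. Among 859 genes outside the rule with at least 12009 exon bases, the length of the shortest dynein heavy chain, 85.4% lay above their mean in library 3, by 0.30 on average. In library 1 the same long genes averaged 0.12, the opposite sign to that of the dynein heavy chains. Library 3 is also the shallow one with the high share of ribosomal RNA, and library 1 the one with the highest cortex markers. In library 2, where both kinds of member were low, the summed cortex, hippocampus and amygdala level was 262 CPM, also above every CON_Ad.lib library, and this library remains in the values given without libraries 1 and 3. The part of these in the members' values was not tested.

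**Figure D5:**
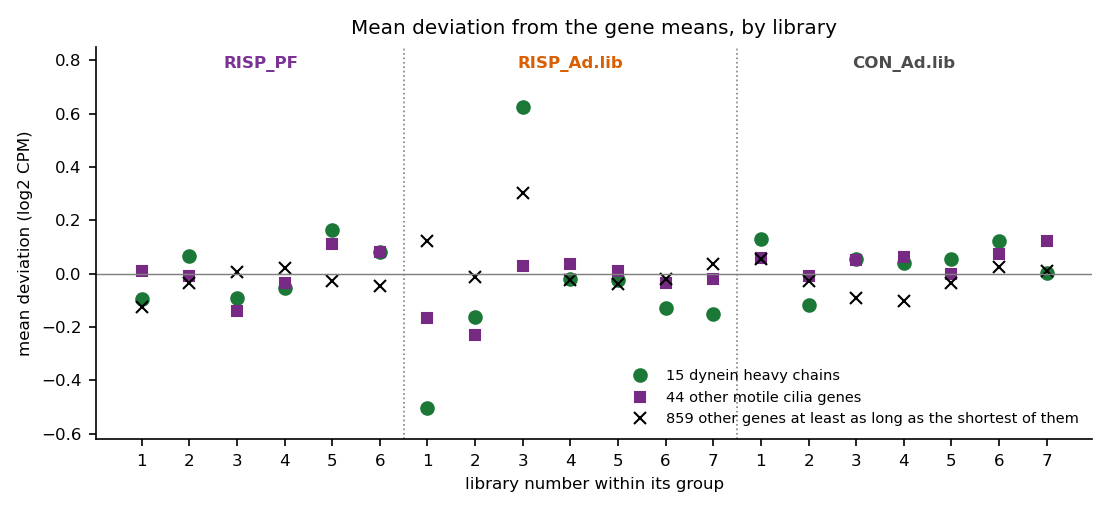
Mean deviation of log2 CPM (vertical axis) per library for the 15 dynein heavy chains (circles), the other 44 tested members (squares) and 859 genes outside the rule with at least 12009 exon bases (crosses). The dynein heavy chains reach 0.63 in RISP_Ad.lib library 3 and -0.50 in RISP_Ad.lib library 1, where the other members stand at 0.03 and -0.165.

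The share of variance on the first principal component describes how far the members follow a common pattern. It was 36.2% for the 59 members over 20 libraries and 29.0% without RISP_Ad.lib libraries 1 and 3. Lists of nearer size had 30.5% and 23.6% (56 other motile cilia genes) and 32.2% and 27.0% (35 primary cilium and intraflagellar transport genes), and the difference between lists was not tested. With each group centred on its own mean it was 39.1%, so the common pattern lay within groups as well. Inner arm dynein heavy chains had 66.4%, which became 37.1% without these libraries, while outer arm chains had 67.5% and 66.8%. Small lists reach high shares more easily, so these 10 and 5 genes are compared with themselves only. Member by member, the sign of the deviation matched that of the mean of the other members in 6 to 18 of 20 libraries, with a median of 13. The median was 12 of 20 with each group centred, and 12 of 18 without RISP_Ad.lib libraries 1 and 3. Over the 20 libraries the sign matched in 18 for Dnah6, 17 for Cfap73 and Dnah17 and 16 for Rsph9, Cfap43, Dnah3 and Dnah8. At the other end were Cfap97 and Cfap298 with 6, Cfap69 and Tekt5 with 7 and Cfap20 and Cfap54 with 8. Of these, Cfap97, Tekt5 and Cfap20 are among the 8 highest members per kilobase. Cfap97 and Cfap20 varied little, with an SD over libraries of 0.112 and 0.096 on the log2 scale, against 0.304 for Dnah6.

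Other motile cilia and ependyma genes were set beside the members. Of 56 tested motile cilia genes outside the rule, such as outer arm docking and central pair proteins, none was called in any comparison. Their median log2 fold change was -0.10 in RISP_Ad.lib against CON_Ad.lib (45 lower, 11 higher), -0.02 in RISP_PF against CON_Ad.lib and 0.09 in RISP_PF against RISP_Ad.lib. Foxj1, the transcription factor, averaged 15.7 ± 1.54 CPM in RISP_PF (SD, n = 6), 13.2 ± 2.33 CPM in RISP_Ad.lib and 16.6 ± 1.1 CPM in CON_Ad.lib (SD, n = 7 each), with a log2 fold change of -0.32 in RISP_Ad.lib against CON_Ad.lib (SE 0.0945, edgeR adjusted p = 0.189). RISP_Ad.lib library 1 was its lowest library, and without libraries 1 and 3 the value was -0.22 (edgeR adjusted p = 0.187). The 56 genes then had a median of -0.09 in that comparison, again with 45 lower. Enkur and Pifo, 2 further ciliary genes, had 0.35 and 0.57 in RISP_PF against RISP_Ad.lib (edgeR adjusted p = 0.176 and 0.204).

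The 15 tested ependyma genes outside the rule were all lower in RISP_Ad.lib than in CON_Ad.lib, by a median of -0.31, though none was called and 9 had an unadjusted p under 0.05. Of all genes tested, 47.1% were lower there, and 5.97% were lower at such a p. All 15 were higher in RISP_PF than in RISP_Ad.lib, beside 48.4% of all genes, by a median of 0.32 and with none called. Against CON_Ad.lib the RISP_PF median was 0, with 7 higher and 8 lower. Tmem212 had 3.05, 3.29 and 3.95 CPM in RISP_PF, 0.907, 2.31 and 3.45 CPM in RISP_Ad.lib and 2.84, 3.63 and 4.29 CPM in CON_Ad.lib, and its log2 fold change in RISP_Ad.lib against CON_Ad.lib was -0.64 (SE 0.171, edgeR adjusted p = 0.158). Rarres2 and Fam183b had -0.44 and -0.26 there (edgeR adjusted p = 0.161 and 0.241). These genes were lowest in the same libraries as the members: their mean deviation was -0.72 in RISP_Ad.lib library 1 and -0.50 in library 2, and highest in RISP_PF libraries 5 and 6 at 0.27 each. RISP_Ad.lib library 3, high for the dynein heavy chains, stood at -0.07. Without libraries 1 and 3 the median was -0.245 in RISP_Ad.lib against CON_Ad.lib, with all 15 lower, and 0.24 in RISP_PF against RISP_Ad.lib, with 14 of 15 higher and none called in either.

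Primary cilium and intraflagellar transport genes, which most brain cells use, had medians of -0.01 in RISP_Ad.lib against CON_Ad.lib, 0.003 in RISP_PF against CON_Ad.lib and 0.03 in RISP_PF against RISP_Ad.lib over 35 tested genes, with none called. Ttc8 and Ift81 had -0.14 and -0.15 in RISP_Ad.lib against CON_Ad.lib (edgeR adjusted p = 0.115 and 0.166). Tanycyte genes, of the cells that share the ventricle wall, had medians of 0.03 in RISP_Ad.lib against CON_Ad.lib and -0.004 in RISP_PF against CON_Ad.lib, and held 1 called gene. This was Nes, an intermediate filament gene, higher in RISP_PF than in RISP_Ad.lib with a log2 fold change of 0.53 (SE 0.0944, edgeR adjusted p = 0.00757), where 0.112% of all genes were called higher. It had 13.8, 16.9 and 19.9 CPM in RISP_PF, against 10, 11.6 and 13.7 CPM in RISP_Ad.lib. These groups were separate by a narrow margin, and such a separation upwards was found in 0.263% of all genes tested. Without RISP_Ad.lib libraries 1 and 3 the Nes value was 0.50 (edgeR adjusted p = 0.0116). Rax and Dio2, also of tanycytes, had 0.59 and -0.86 in that comparison (edgeR adjusted p = 0.112 for both). With the 2 libraries left out, Dio2 was called lower in RISP_PF, at -0.555 against RISP_Ad.lib (edgeR adjusted p = 0.0208) and -0.45 against CON_Ad.lib (edgeR adjusted p = 0.0388). More genes were called in that setting: 0.79% and 1.39% of all genes in these comparisons, against 0.397% and 0.486% with every library. The choroid plexus, another epithelium with motile cilia, was represented by 13 genes with a summed level of 40.3 to 96.3 CPM in RISP_PF, 36.0 to 225 CPM in RISP_Ad.lib and 40.5 to 73.9 CPM in CON_Ad.lib. The highest was RISP_Ad.lib library 2, where the members were low.

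Marker lists of other tissue parts and cell types also had medians away from 0 in RISP_Ad.lib. The median log2 fold change in RISP_Ad.lib against CON_Ad.lib was 0.94 for 11 cortex, hippocampus and amygdala neuron genes (all 11 higher), 0.20 for 12 thalamus neuron genes (10 higher) and -0.38 for 17 hypothalamus neuron genes (16 lower). It was -0.37 for 13 pericyte and fibroblast genes, 0.12 for 12 oligodendrocyte genes, 0.07 for 12 endothelial genes, 0.005 for 12 microglia genes and -0.02 for 12 astrocyte genes. In RISP_PF against CON_Ad.lib the medians of the same 8 lists ran from -0.18 for hypothalamus neuron genes to 0.15 for oligodendrocyte genes. No gene of these lists was called in either comparison. Without RISP_Ad.lib libraries 1 and 3 the cortex, hippocampus and amygdala median in RISP_Ad.lib against CON_Ad.lib was 0.26 (9 of 11 higher), that of the hypothalamus neuron genes -0.34 (15 of 17 lower) and that of the oligodendrocyte genes 0.31 (12 of 12 higher), where Mobp and Mal were called higher. In RISP_PF against CON_Ad.lib Opalin, also of oligodendrocytes, was then called higher. Without these libraries 0.267% of all genes were called in RISP_Ad.lib against CON_Ad.lib and 1.39% in RISP_PF against CON_Ad.lib. Between RISP_PF and RISP_Ad.lib, without these libraries, the medians of the 8 lists ran from -0.246 (cortex, hippocampus and amygdala) to 0.312 (pericyte and fibroblast). There 15 of 17 hypothalamus neuron genes were higher and 2 lower. All 12 astrocyte genes were lower and 1 was called, beside 0.79% of all genes. The part of the slices' content of other tissue in the members' values was not tested.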

How the data were processed

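RNA from mouse hypothalamus slices was sequenced in 20 libraries. The authors deposited raw read counts per gene in 1 table. STAR, featureCounts and DESeq2, and the builds GRCm38 and mm10, are named per the submitters' processing notes, and the strand setting is not given in the sources used here. Of 55471 genes, 55230 matched the GENCODE M21 annotation of GRCm38, which gave biotypes, coordinates and exon lengths.

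Counts were tested with edgeR 4.0.16 and limma 3.58.1 in R 4.3.3: TMM scaling, filterByExpr with a minimum count of 10, and 1 quasi-likelihood fit over the 3 groups. P-values are two-sided and adjusted by Benjamini-Hochberg over 17893 genes, and a gene is called at an adjusted p under 0.05. Log2 CPM uses a prior count of 2, and intervals are 95% intervals of the fit. The code was tested on simulated counts. The alternatives were RLE and upper quartile scaling, no filter, a mean CPM of at least 1, robust dispersion, a replicate block, groups compared alone, DESeq2 1.42.0, limma-voom with quality weights, and each library, and RISP_Ad.lib libraries 1 and 3 together, left out.

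Members and gene lists were chosen with earlier results of these data known. Named with values are the 3 members of smallest p in each comparison, called members, the 8 highest per kilobase of exon and Foxj1, plus up to 4 members per role of smallest p in RISP_Ad.lib against CON_Ad.lib and up to 3 genes per other list. Other members were named after their values were seen. No 2 libraries of a group agreed within sampling noise.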

Additional observations from a re-analysis of the deposited data

Results flagged for a closer look

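In 4 of 45 sets of libraries (a gene in a group) 1 library stood far from the others by Dixon's test, where chance gives about 1 in 20 sets. Foxj1 was lowest in RISP_Ad.lib library 1, at 3.141 on the log2 CPM scale, with the next library at 3.645. Tekt2 was lowest in RISP_PF library 6, at 1.105 against 1.541 for the next. Dnah7a was highest in CON_Ad.lib library 4, at 3.076 against 2.719 for the next. Cfap20 was lowest in CON_Ad.lib library 1, at 5.327 against 5.512 for the next.

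Tekt4 changed differently under the 2 feeding regimes. Its log2 fold change against CON_Ad.lib in RISP_PF minus that in RISP_Ad.lib was -0.805, which is the tested contrast of RISP_PF against RISP_Ad.lib (edgeR adjusted p = 0.00121), and all 6 RISP_PF libraries lay below all 7 RISP_Ad.lib libraries.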

How the results depend on the processing

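The 30 alternatives left the call of Tekt4 in place, with log2 fold changes of -0.914 to -0.822 in RISP_PF against CON_Ad.lib and -0.882 to -0.758 against RISP_Ad.lib. Members called numbered 0 throughout in RISP_Ad.lib against CON_Ad.lib and 1 throughout in RISP_PF against CON_Ad.lib. In RISP_PF against RISP_Ad.lib 2 members were called, Rsph1 beside Tekt4, under robust dispersion, DESeq2, limma-voom and without RISP_Ad.lib libraries 1 and 3, and 1 to 2 with single libraries left out (2 without RISP_Ad.lib 1, RISP_Ad.lib 3 or RISP_PF 3). The cause was not tested. The member medians with single libraries left out ran from -0.125 to -0.057 in RISP_Ad.lib and -0.048 to -0.006 in RISP_PF against CON_Ad.lib, and from 0.017 to 0.083 in RISP_PF against RISP_Ad.lib. The share on the first component was 29.0% without RISP_Ad.lib libraries 1 and 3.

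Signs turned for some members, none of them called in the comparison concerned. Among all 59, at most 8 turned in either comparison against CON_Ad.lib and at most 10 in RISP_PF against RISP_Ad.lib under any 1 alternative. The furthest from 0 were Dnah9 in RISP_Ad.lib against CON_Ad.lib, 0.158 but -0.046 without RISP_Ad.lib library 3 and -0.049 without libraries 1 and 3, Cfap221 there, -0.131 but 0.023 without both, and Cfap58 in RISP_PF against RISP_Ad.lib, 0.151 but -0.069 without RISP_PF library 3. Of the members recomputed by name, in RISP_Ad.lib against CON_Ad.lib, Cfap97 became -0.005 with upper quartile scaling and -0.001 with no filter, Drc1 0.002 (RLE, groups alone, DESeq2) and 0.001 (mean CPM of at least 1), Tekt2 0.025 with limma-voom, and Tekt5 0.045 without RISP_Ad.lib libraries 1 and 3 and 0.022 with limma-voom. With single libraries left out the ranges there were -0.047 to 0.004 for Cfap20, -0.01 to 0.051 for Cfap36, -0.02 to 0.046 for Cfap97, -0.059 to 0.059 for Dnah7a, -0.059 to 0.036 for Drc1, -0.111 to 0.015 for Tekt4 and -0.083 to 0.006 for Tekt5. In RISP_PF against CON_Ad.lib they were -0.007 to 0.106 for Rsph1 and -0.006 to 0.047 for Rsph9.

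Over all genes, the number called in RISP_Ad.lib against CON_Ad.lib was 11, against 102 with DESeq2, 51 with limma-voom, 48 without RISP_Ad.lib libraries 1 and 3, 3 with the groups alone, 1 with the replicate block and 0 to 35 with single libraries left out. In RISP_PF against CON_Ad.lib it was 87, against 250 without these libraries, 245 with the groups alone, 223 with limma-voom, 134 with DESeq2, 65 with the block and 66 to 166 with single libraries left out. For RISP_PF against RISP_Ad.lib the number was 71, against 142 without libraries 1 and 3, 172 with DESeq2, 139 with limma-voom, 48 with the block, 31 with the groups alone and 39 to 130 with single libraries left out. Correlations of the 19 pairs of same-numbered libraries ran from -0.158 to 0.304, with 2 above 0.1. Their median was -0.0255, against 0.00409 for differently numbered libraries, and 0 of 20 libraries correlated best with their own number. These values cannot exclude that same-numbered libraries were paired. With the replicate block, members called stayed at 0, 1 and 1, the medians were -0.105, -0.019 and 0.065 for the comparisons in that order, and Tekt4 stayed called in both.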
